A study of Mus musculus with 8 samples.

Results

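The granins and the genes of prohormone processing were read as a group of 10 genes, Chga, Chgb, Scg2, Scg3, Scg5, Vgf, Pcsk1, Pcsk2, Pcsk1n and Cpe, by every array probe that the platform annotation names for them. That gave 10 probes out of 25697, which cover 8 of the 10 genes, with 3 probes for Chga and 1 for each of the other genes. No probe carried the name of Pcsk2 or Cpe, so these genes were not analysed here. The arrays hold RNA that came down with an antibody against ELAVL1 from LbetaT2 cells, a mouse line with features of gonadotropes, the pituitary cells that make luteinising and follicle-stimulating hormone, 4 from cells treated with gonadotropin-releasing hormone (GnRH) during 30 min and 4 from cells that received vehicle for the same time. All cells had been kept without serum for 16 h before, and the labels give no dose of GnRH. ELAVL1, also called HuR, binds messenger RNA at sequences rich in A and U. A value gives how much of a transcript came down with the ELAVL1 antibody, relative to the other RNA on its array. No pull-down with a control antibody was analysed here, so RNA carried over without binding ELAVL1 cannot be told apart from bound RNA. RNA taken before the pull-down was not analysed here, and a change in the amount of a transcript in the cells cannot be told apart from a change in its binding. LbetaT2 is a single cell line, and such relative values give neither the number of cells nor the amount of RNA per cell.

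Granins are acidic proteins of the regulated secretory pathway. They condense in the trans-Golgi network, help to form dense-core granules and are stored and released with the hormone. Most are also precursors, which the convertases PC1/3 and PC2 (encoded by Pcsk1 and Pcsk2) cut at basic residues and carboxypeptidase E (encoded by Cpe) trims. Gonadotropes are known to hold chromogranin A and secretogranin II in their granules and to release them together with gonadotropins after GnRH.

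Arrays had a raw median of 33.4 to 42.1, and a probe was called above background on an array where its detection p was below 0.05, which held for 10802 to 11663 probes. The treatment was visible in Egr1, an immediate early transcription factor, with a mean log2 signal of 13.16 ± 0.06 in GnRH arrays and 9.36 ± 0.38 in vehicle arrays, and in Fos, with 13.14 ± 0.16 in GnRH arrays and 8.84 ± 0.62 in vehicle arrays (SD, n = 4 each). Of 9 gonadotrope markers on the array 7 reached the tested set and none passed; Gnrhr was the brightest probe on each array, and quantile normalization makes such values identical, so its difference of 0 was fixed. Cga, Gnrhr and Gata2 were above background on all arrays, whereas Lhb and Fshb, which encode the beta subunits of the gonadotropins, were on none. Among markers of other pituitary lineages 0 of 9 genes on the array reached the tested set, and Pomc, Prl, Gh and Tshb were above background on no array. The endothelial markers Pecam1 and Cdh5 were above background on all 8 arrays. A Pecam1 probe averaged 9.42 ± 0.28 in GnRH arrays and 9.31 ± 0.24 in vehicle arrays (SD, n = 4 each). These were the only genes tested of 7 markers of stroma, endothelium and blood on the array, and neither passed. LbetaT2 is a cell line, and the source of this signal and its part in the granin values were not tested. Whether replicates were separate cultures is not given in the labels, and p-values then measure only the spread between these samples, possibly a technical one.

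The comparison asks whether GnRH alters how much of a granin or processing transcript is recovered with the ELAVL1 antibody. Most granin probes had a higher mean signal after GnRH, by less than 1.7-fold, and none passed the test. Of all 11318 tested probes 48.1% had a positive log2 change, with a median of -0.008. Of the 9 member probes tested, which cover 7 genes, 8 had a positive and 1 a negative log2 change, with a median of 0.26. The largest differences were those of Vgf, Scg3 and 2 of the Chga probes, between 1.40-fold and 1.67-fold, while Chgb, Scg2, Scg5 and Pcsk1n lay between 1.11-fold and 1.20-fold. None of the 9 probes passed at an adjusted p below 0.05 (limma, Benjamini-Hochberg over all tested probes, adjusted p = 1.00 for each), where 0.265% of all tested probes passed as higher and 0% as lower. At an unadjusted p below 0.05 (limma) 4 of the 9 were higher, 2 of them probes of Chga, beside 2.09% of all tested probes that were higher and 0.813% that were lower. The members were chosen with earlier results of these data known, and their probes share the same arrays, so this count is no test. That count was 2 without vehicle replicate 2 and likewise 2 without vehicle replicate 3.

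**Figure D1:**
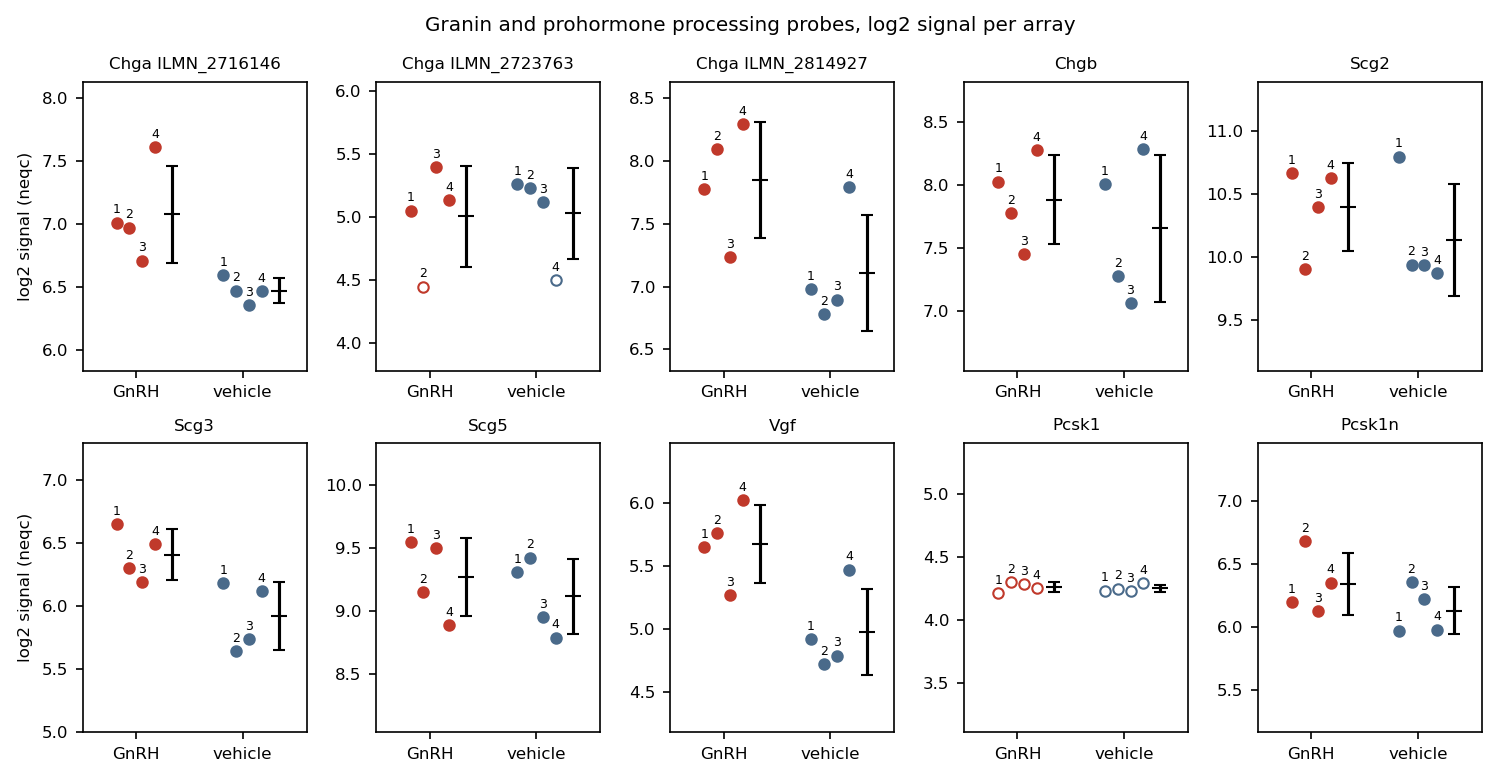
Log2 signal of the 10 probes on each array, after background correction and quantile normalization (neqc), for GnRH (red) and vehicle (blue), with replicate numbers beside the points. Open points were not above background (detection p of 0.05 or more), and bars show mean ± SD (n = 4); each panel spans the same range of log2 units. The groups are fully apart for Chga ILMN_2716146 and Scg3, while Chgb, Scg2, Scg5 and Pcsk1n overlap.

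Promoters of several granin genes are known for cyclic AMP response elements, the sites bound by CREB. Promoters are shown here for Chga, the gene with several probes, and for Chgb, Scg2 and Pcsk1, the members in which the full element was found. The table of RefSeq promoters (GRCm38.p6, 250 bases before to 50 after each annotated start) matched 8 of the 10 genes, all but Vgf and Cpe. The full element, TGACGTCA, which reads the same on both strands, was found in 3 of these 8, against 1.79% of all 32851 promoters in the table. The shorter TGACG, searched on both strands and contained in the full element, was found in 7 of the 8, against 20.8% of all promoters. The sequences below lie at chr12:102554691-102554990 (plus strand), chr2:132781392-132781691 (plus strand), chr1:79439977-79440276 (minus strand) and chr13:75089607-75089906 (plus strand). They are written in the direction of transcription, with capitals for the full element or, outside it, for TGACG.
Chga: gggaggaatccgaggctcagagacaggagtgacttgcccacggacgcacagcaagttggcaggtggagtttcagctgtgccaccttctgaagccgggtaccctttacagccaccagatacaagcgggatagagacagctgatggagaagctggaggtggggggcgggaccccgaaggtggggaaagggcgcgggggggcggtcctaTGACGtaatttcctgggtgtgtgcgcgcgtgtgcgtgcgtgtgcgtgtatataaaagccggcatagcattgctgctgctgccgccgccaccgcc
Chgb: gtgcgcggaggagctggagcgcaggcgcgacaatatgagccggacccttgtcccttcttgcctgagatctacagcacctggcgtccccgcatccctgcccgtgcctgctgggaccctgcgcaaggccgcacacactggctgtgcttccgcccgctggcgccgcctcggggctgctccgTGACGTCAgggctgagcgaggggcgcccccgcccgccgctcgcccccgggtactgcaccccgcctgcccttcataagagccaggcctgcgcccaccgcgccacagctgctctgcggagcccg
Scg2: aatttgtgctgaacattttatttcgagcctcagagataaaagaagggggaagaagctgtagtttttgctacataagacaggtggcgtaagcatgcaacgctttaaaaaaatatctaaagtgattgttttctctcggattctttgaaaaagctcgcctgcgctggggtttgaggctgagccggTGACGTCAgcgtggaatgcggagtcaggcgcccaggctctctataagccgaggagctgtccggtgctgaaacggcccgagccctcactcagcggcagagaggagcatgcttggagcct
Pcsk1: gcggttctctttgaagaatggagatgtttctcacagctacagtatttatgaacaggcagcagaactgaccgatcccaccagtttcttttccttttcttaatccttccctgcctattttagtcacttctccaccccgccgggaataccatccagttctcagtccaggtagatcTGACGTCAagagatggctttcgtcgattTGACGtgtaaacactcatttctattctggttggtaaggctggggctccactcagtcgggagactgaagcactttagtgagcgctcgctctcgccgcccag
The full element begins at base -72 from the annotated start in Chgb, at -68 in Scg2 and at -78 in Pcsk1. Chga has TGACGTAA, which differs from the full element at 1 base, at -44. Scg3, whose promoter is not shown, has TGACGCCA, which also differs at 1 base, at -30. The share of all promoters with such a near match was not computed. A match of letters is a description of the sequence, and binding at these sites was not measured here.

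Chga encodes chromogranin A, the granin that gave the family its name and a precursor of several peptides. On probe ILMN_2716146 the log2 signal was 7.01, 6.97, 6.71 and 7.61 in GnRH replicates 1 to 4, against 6.59, 6.47, 6.35 and 6.47 in vehicle replicates 1 to 4. All 4 GnRH values lay above all 4 vehicle values, a separation seen upward in 1.53% and downward in 0.618% of all tested probes. GnRH replicate 4 was the highest and GnRH replicate 3 came closest to the vehicle values. The log2 change was 0.60 ± 0.19 (SE), 1.52-fold, with a 95% interval for this probe alone of 0.18 to 1.03 (limma adjusted p = 1.00).

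Probe ILMN_2814927 gave the larger difference with more scatter. Here the log2 signal was 7.77, 8.09, 7.24 and 8.29 in GnRH replicates 1 to 4, against 6.98, 6.78, 6.90 and 7.79 in vehicle replicates 1 to 4. After normalization the groups overlapped, because vehicle replicate 4 stood above GnRH replicates 1 and 3. Raw signals were 287, 292, 169 and 312 in GnRH replicates 1 to 4, above every vehicle value (147, 139, 136 and 168). How many of all tested probes separate in raw signal was not counted. Vehicle replicate 4 had the lowest raw median of all arrays, 33.4. In the intensities processed by the authors it stood at 232.8, above GnRH replicate 3 alone, at 168.9. The part of array scaling in this overlap was not tested. The log2 change was 0.74 ± 0.27 (SE), 1.67-fold, with an interval of 0.13 to 1.34 (limma adjusted p = 1.00), and it was 0.96 without vehicle replicate 4.

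The remaining Chga probe, ILMN_2723763, was close to its background limit. The values were 5.05, 4.44, 5.39 and 5.13 in GnRH replicates 1 to 4, against 5.26, 5.23, 5.12 and 4.50 in vehicle replicates 1 to 4. GnRH replicate 2 and vehicle replicate 4 were not above background, so 3 arrays of each group measured it. Its log2 change was -0.02 ± 0.24 (SE), with an interval of -0.54 to 0.50 (limma adjusted p = 1.00). The sign turned under 6 of 19 alternative settings. Among these is the mean over the 3 Chga probes, which is not a change of this probe alone.

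The several Chga probes were compared by their changes, since levels of different probes are not comparable. On each array the log2 value of one probe was subtracted from that of another, and the difference was compared between groups in an exact two-sided permutation test over 70 assignments, whose smallest possible p is 0.0286. ILMN_2716146 minus ILMN_2723763 averaged 2.07 ± 0.57 after GnRH and 1.44 ± 0.35 in vehicle (SD, n = 4 each), a difference in change of 0.63 with a 95% interval of -0.19 to 1.44 (exact p = 0.143, 0.386 adjusted over the 3 pairs). ILMN_2723763 minus ILMN_2814927 averaged -2.84 ± 0.77 after GnRH and -2.08 ± 0.81 in vehicle, a difference in change of -0.76 with an interval of -2.13 to 0.61 (exact p = 0.257, adjusted 0.386). For the probes above background on all arrays, ILMN_2716146 minus ILMN_2814927, the difference in change was -0.13 with an interval of -0.78 to 0.52 (exact p = 0.600, adjusted 0.600). A single differing pair could not have passed after adjustment, since the smallest exact p, adjusted over 3 pairs, is 0.0857. The unadjusted exact p of ILMN_2716146 minus ILMN_2723763 was 0.0571 with an offset of 50 and without between-array normalization. Median scaling necessarily gives the same result as no between-array normalization, since a shift of a whole array cancels in the difference. With single replicates left out, the unadjusted exact p of this pair ran from 0.0857 to 0.257. Whether the probes differ in change is thus not settled by these arrays, and the intervals hold differences as large as the changes themselves. The place of the probes on the transcript was not analysed here.

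**Figure D2:**
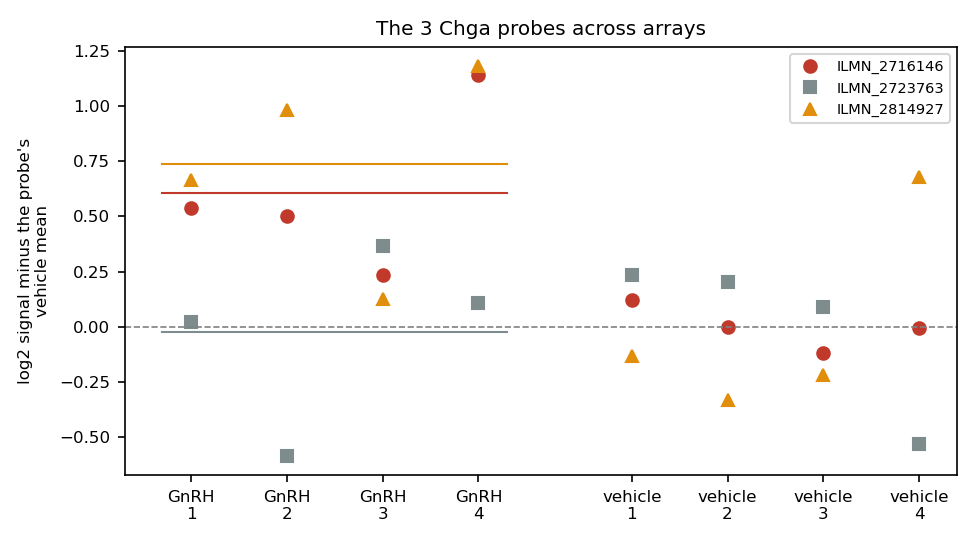
Log2 signal of the 3 Chga probes on each array minus that probe's vehicle mean, with GnRH arrays on the left and horizontal lines at each probe's GnRH mean. ILMN_2716146 and ILMN_2814927 lie above 0 on all 4 GnRH arrays, with means of 0.60 and 0.74, while ILMN_2723763 scatters around -0.02 and ILMN_2814927 is also high on vehicle replicate 4.

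Vgf, a granin-like precursor of neuroendocrine peptides that neurotrophins are known to induce, had the lowest unadjusted p of the group. Its log2 signal was 5.65, 5.76, 5.27 and 6.02 in GnRH replicates 1 to 4, against 4.92, 4.72, 4.79 and 5.47 in vehicle replicates 1 to 4. After normalization the 3 higher GnRH values lay above every vehicle value, and GnRH replicate 3 lay below vehicle replicate 4. Raw GnRH signals of Vgf, 79.2, 71.3, 55.7 and 80.9 in replicates 1 to 4, all lay above the vehicle signals given below. The part of array scaling in this overlap was not tested. The log2 change was 0.70 ± 0.21 (SE), 1.62-fold, with an interval of 0.23 to 1.17 (limma adjusted p = 1.00). The vehicle signals were near background, with raw values of 51.7, 44.5, 43.8 and 47.9 and detection p-values from 0.00501 to 0.0301, and its change depended on the offset added before the logarithm, at 0.38 with an offset of 50. Likeness to Vgf over the 8 arrays was read by the root mean square difference of deviations from each probe's own mean. The most like genes were Akr1b10 at 0.12, Anln at 0.15 and Rnf8 at 0.16 log2 units. The median was 0.51 over the tested probes of named genes outside the group, without predicted or clone-like names.

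Scg3, secretogranin III, which ties chromogranin A to the granule membrane, was also fully separated. Its log2 signal was 6.65, 6.30, 6.19 and 6.49 in GnRH replicates 1 to 4, against 6.18, 5.64, 5.73 and 6.12 in vehicle replicates 1 to 4. GnRH replicate 3, at 6.19, and vehicle replicate 1, at 6.18, nearly touched. The log2 change was 0.49 ± 0.17 (SE), 1.40-fold, with an interval of 0.10 to 0.87 (limma adjusted p = 1.00).

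Scg2, secretogranin II, the precursor of secretoneurin, had a raw signal between 996 and 2014 in GnRH replicates and between 607 and 1892 in vehicle replicates. On the log2 scale its signal was 10.67, 9.90, 10.40 and 10.63 in GnRH replicates 1 to 4, against 10.80, 9.94, 9.94 and 9.87 in vehicle replicates 1 to 4. Vehicle replicate 1 was the highest of all 8 arrays, and the other vehicle replicates lay together at the level of GnRH replicate 2. The log2 change was 0.26 ± 0.24 (SE), with an interval of -0.28 to 0.80 (limma adjusted p = 1.00), and it was 0.48 without vehicle replicate 1.

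Chgb encodes chromogranin B, the close relative of chromogranin A. Log2 signals of Chgb were 8.03, 7.78, 7.45 and 8.28 in GnRH replicates 1 to 4, against 8.01, 7.27, 7.06 and 8.29 in vehicle replicates 1 to 4. In both groups replicates 4 and 1 were the highest and replicate 3 the lowest, and the groups overlapped over most of their range. The log2 change was 0.23 ± 0.28 (SE), with an interval of -0.40 to 0.86 (limma adjusted p = 1.00). With replicate number as a block the same change had an SE of 0.15 (limma adjusted p = 0.959). The size of the Chgb change depended on single arrays: it was 0.61 ± 0.22 with array weights (SE, limma adjusted p = 0.172), 0.03 without vehicle replicate 3 and 0.44 without vehicle replicate 4.

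Scg5 encodes 7B2, the chaperone that PC2 needs to mature. Its log2 signal was 9.55, 9.15, 9.50 and 8.89 in GnRH replicates 1 to 4, against 9.31, 9.42, 8.95 and 8.79 in vehicle replicates 1 to 4. The groups overlapped, with a log2 change of 0.15 ± 0.20 (SE) and an interval of -0.29 to 0.60 (limma adjusted p = 1.00). GnRH replicate 4, the highest array for Chga ILMN_2716146 and ILMN_2814927 and for Vgf, was the lowest GnRH array for Scg5.

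The convertases and their inhibitors were represented by Pcsk1 and Pcsk1n. Pcsk1, which encodes PC1/3, was above background on none of the 8 arrays. Its raw signal lay between 29.9 and 34.0 after GnRH and between 29.3 and 31.8 in vehicle, with detection p-values of 0.444 to 0.924 and 0.472 to 0.855 in those groups, so no fold change is given. Pcsk1n encodes proSAAS, an inhibitor of PC1/3, and had a log2 signal of 6.19, 6.68, 6.12 and 6.35 in GnRH replicates 1 to 4, against 5.97, 6.35, 6.22 and 5.98 in vehicle replicates 1 to 4. Of the GnRH values only that of replicate 2 lay above every vehicle value. The log2 change of Pcsk1n was 0.21 ± 0.17 (SE), with an interval of -0.16 to 0.58 (limma adjusted p = 1.00). Its probe was above background on all 8 arrays. Each gene had only 1 probe and levels of different probes are not comparable, so the lack of Pcsk1 signal does not show that its transcript was absent.

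**Figure D3:**
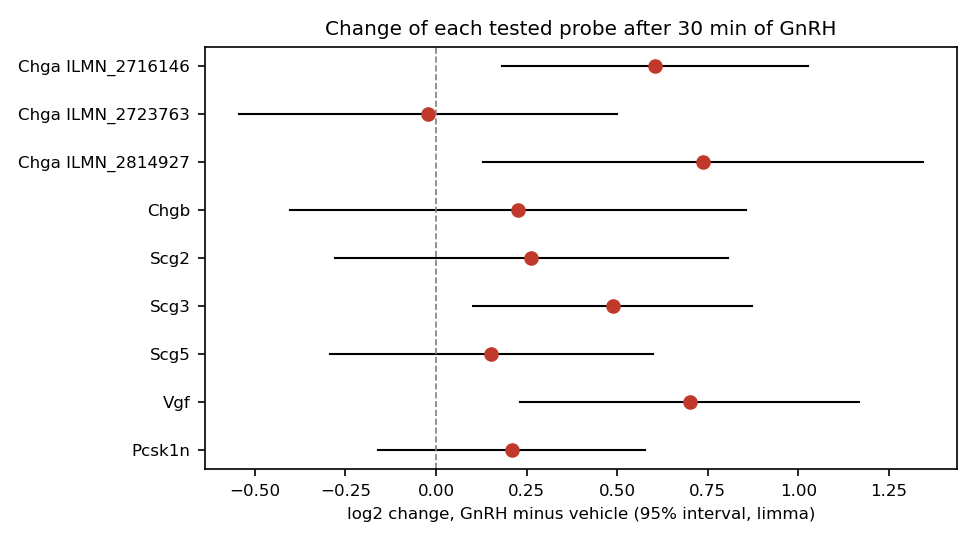
Log2 change of each tested probe, GnRH minus vehicle, with its 95% interval (limma, 4 arrays per group, intervals not adjusted for the number of probes). The intervals of Chga ILMN_2716146, Chga ILMN_2814927, Scg3 and Vgf lie above 0, and those of the other 5 probes include it.

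Array by array, 9, 7, 7 and 8 of the 9 tested probes lay above their own vehicle mean in GnRH replicates 1 to 4, against 6, 3, 2 and 4 in vehicle replicates 1 to 4. The vehicle values of each probe average to that mean by construction and the GnRH values do not, so these counts are no test. Of the 9 probes 3 belong to Chga. The median deviation from the vehicle mean was 0.53, 0.38, 0.26 and 0.57 log2 units in GnRH replicates 1 to 4, against 0.19, -0.20, -0.18 and -0.004 in vehicle replicates 1 to 4. GnRH replicate 3 had the smallest shift of its group, and vehicle replicate 1 came nearest to the GnRH arrays. The median deviation of all tested probes stayed between -0.03 and 0.01 on every array, as quantile normalization makes it.

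Genes around the same pathway were read from lists that stand beside the members. Of 17 other enzymes that cut, trim or modify secreted proteins, 13 were on the array and 7 were tested, by 11 probes, of which none passed and none had an unadjusted p below 0.05 (limma). Their median log2 change was 0.12. Furin, the ubiquitous convertase of the constitutive pathway, had tested probes at 0.12 ± 0.32 and 0.18 ± 0.34, and Cpd, a carboxypeptidase of the trans-Golgi network, stood at -0.04 ± 0.30 and -0.08 ± 0.28 (log2 change ± SE). Mbtps1, the site-1 protease, had its lowest p at 0.31 ± 0.17, with other probes at -0.08 ± 0.21 and 0.17 ± 0.25. Rnpep, an aminopeptidase, stood at 0.20 ± 0.16, Pcsk7 at -0.19 ± 0.19 and the tyrosylprotein sulfotransferase Tpst1 at 0.14 ± 0.16. Pam, the amidating enzyme, and Qpct, which forms pyroglutamate, were above background on no array.

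Of 13 other granule genes 12 were on the array and 8 were tested by 13 probes, with a median log2 change of 0.13 and none passing. Changes were positive for 11 of these probes and negative for 2, beside 48.1% positive over all tested probes. At an unadjusted p below 0.05 (limma) 1 of the 13 granule probes was higher, that of Ica1, a protein of immature granules, at 0.40 ± 0.17 (log2 change ± SE). Atp6v0a1, a subunit of the proton pump that acidifies granules, stood at 0.41 ± 0.22, Hid1, a factor in granule formation, at 0.21 ± 0.13 and 0.15 ± 0.18, and Atp6ap2, a further pump subunit, between -0.07 ± 0.49 and 0.24 ± 0.18 over its probes. Ptprn, the granule membrane protein IA-2, stood at -0.006 ± 0.17.

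Peptide precursors, the substrates of the convertases, were mostly below background. Of 28 listed genes 25 were on the array and 5 were tested by 6 probes, of which none passed, none had an unadjusted p below 0.05 (limma), and 2 had a positive and 4 a negative change, with a median of -0.06. Nppc, the precursor of C-type natriuretic peptide, averaged 6.79 ± 0.20 in GnRH arrays and 7.05 ± 0.36 in vehicle arrays (SD, n = 4 each), a log2 change of -0.25 ± 0.19 (SE, limma adjusted p = 1.00). Pdyn, the dynorphin precursor, stood at 0.10 ± 0.13 and -0.10 ± 0.18 on its probes, Oxt at -0.05 ± 0.15 and Adm at 0.06 ± 0.17. Adcyap1, the precursor of PACAP, and Pomc were above background on no array. Cga, the glycoprotein hormone alpha subunit that gonadotrope granules store, averaged 12.07 ± 0.23 in GnRH arrays and 11.60 ± 0.17 in vehicle arrays (SD, n = 4 each), a log2 change of 0.47 ± 0.16 (SE, limma adjusted p = 1.00).

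**Figure D4:**
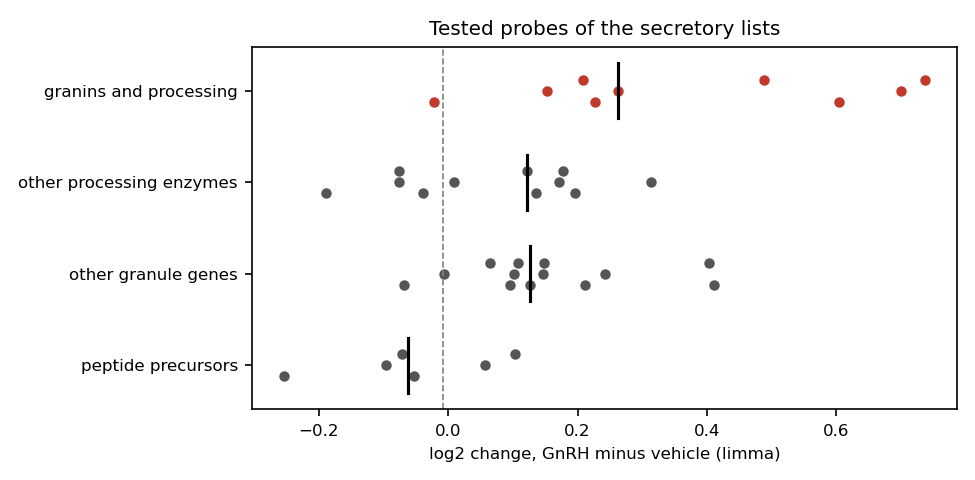
Log2 change, GnRH minus vehicle, of the tested probes of the granins and processing genes (red) and of the lists of other processing enzymes, other granule genes and peptide precursors (grey), with short black lines at each median and a dashed line at the median of all tested probes. The medians are 0.26, 0.12, 0.13 and -0.06, and the lists overlap.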

How the data were processed

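The main deposited file holds, per the file headers, 1 signal intensity and 1 detection p-value for each probe and array; the intensities are linear and their array medians differ, so they were taken as not yet normalized. A second file of linear intensities processed by the authors, with array medians of 38.3 to 38.6 and a method not given in the sources used here, served as an alternative. Per the labels, lysates were cleared with IgG beads, 5 µg of ELAVL1 antibody was used, and beads were washed 6 times. Groups and replicate numbers came from sample titles. The steps of neqc in limma 3.58.1 (R 4.3.3) were applied, namely normexp background correction by means of the detection p-values, an offset of 16, quantile normalization and log2. Probes above background on 4 or more of the 8 arrays (11318 of 25697) entered lmFit and eBayes with treatment as the only term, and Benjamini-Hochberg adjustment ran over all of them. Of all probes 23978 had 1 gene symbol, 0 several and 1719 none, and symbols were updated through the gene identifier. Left without quantile normalization, the tested probes had a median log2 difference of 0.11. In 20 simulations made from the 11318 probes of this comparison, 200 probes were changed, by 0.5, 1 or 2 on the log2 scale in either direction. The fit called 6.41% of probes changed by 0.5, 60.5% of those changed by 1 and 0.0499% of unchanged ones. The simulated noise was normal and independent between probes, whereas real arrays share deviations across probes, so these rates need not hold for the real arrays. The number of arrays limits the precision.

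The members and lists were chosen with earlier results of these data known, and so was the rule for named genes: all members, and up to 4 genes of each further list with the lowest p; Furin, Cpd, Pam, Qpct, Ptprn, Adcyap1, Pomc and the markers Gata2, Prl, Gh, Tshb, Pecam1 and Cdh5 were chosen after their values were seen. Alternatives covered offset, background correction, normalization, the processed values, the dim-probe filter, the eBayes options, array weights, replicate block, sample number, the mean over a gene's probes and leaving out each replicate.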

Additional observations from a re-analysis of the deposited data

Results flagged for a closer look

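Of the 18 sets of 4 values from the 9 tested granin and processing probes, 1 held a sample far from the others, where chance gives about 1 in 20. Scg2 had a log2 signal of 10.80 in vehicle replicate 1, against 9.87 to 9.94 in the other vehicle replicates.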

How the results depend on the processing

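No granin or processing probe passed under any of the 20 alternative settings. The lowest adjusted p-values came with array weights, for Vgf (0.0604), Chga ILMN_2814927 and Scg3 (0.0905 for each, limma), and the adjusted p of Vgf ran from 0.0604 to 1.00 over its alternatives. Apart from Chga ILMN_2723763, each probe kept a positive change in all 20. That probe's change turned to 0.0316 without between-array normalization, and ran from -0.20 to 0.17 with single replicates left out. The mean over the 3 Chga probes, which is 1 value for all of them, changed by 0.44. With single replicates left out (values normalized over all 8 arrays) the change ran from 0.43 to 0.73 for Chga ILMN_2716146, 0.59 to 0.96 for Chga ILMN_2814927, 0.58 to 0.87 for Vgf, 0.40 to 0.58 for Scg3, 0.17 to 0.48 for Scg2, 0.03 to 0.44 for Chgb, 0.04 to 0.28 for Scg5 and 0.09 to 0.28 for Pcsk1n. The number of these probes with an unadjusted p below 0.05 then ran from 2 to 5, and the number with a positive change from 8 to 9. No difference between Chga probes passed under its 13 alternatives, which says nothing about stability: the smallest p possible with the replicate block is 0.125, and over all 8 arrays a lone pair at the smallest exact p would have an adjusted p of 0.0857. Over all tested probes the count of higher ones was 30, against 14 with no filter on dim probes, 46 with array weights and 17 to 27 with single replicates left out. The count of lower ones was 0, against 4 with array weights and 0 to 1 with single replicates left out. Replicate numbers did not pair the samples throughout (correlations of deviations for numbers 1 to 4 of 0.723, -0.227, 0.256 and 0.649), and not every sample correlated best with its own number. With replicate block 43 probes were higher and 0 lower, and no granin probe passed (lowest adjusted p = 0.162, for Vgf, limma). The cause of these shifts was not tested. Vgf in vehicle and Chga ILMN_2723763 lie near background, which limits the reading of their changes.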
